A study of Mus musculus with 6 samples.

Results

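The genes described here serve protein folding and quality control in the endoplasmic reticulum (ER) and stand under the ATF6 and IRE1-XBP1 arms of the unfolded protein response. They were chosen by symbol, not by a measured value, though with earlier results of these data known. They comprise 32 of the 55401 gene identifiers counted in pancreatic islets. The 3 sensors and factors are Atf6, Ern1 and Xbp1. There are 9 chaperones and cofactors, 2 lectin chaperones, 7 genes of oxidative folding and proline isomerisation, 9 genes of ER-associated degradation (ERAD) and 2 genes of the translocon. All 32 were found and all 32 passed the filter on low counts, the lowest count of any of them in any library being 466.

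RNA was sequenced from islets of male C57BL/6 mice of about 20 weeks, in 6 libraries. All mice carried floxed alleles of Pdgfra (Pdgfra fl/fl), which encodes the alpha receptor for platelet-derived growth factor. The 3 control libraries lacked Pdx1-Cre. The 3 libraries labelled KO carried it, a recombinase driven by the promoter of Pdx1, which is active in pancreatic progenitors and later in beta cells. The design addresses the effect of removing this receptor from the pancreatic lineage on islet RNA. Without a Cre-only group here, effects of Cre itself and of the deletion cannot be told apart. Libraries held 15026094 to 25299689 counts. Pdgfra stood at 3.37, 5.13 and 3.82 CPM in the controls and 3.73, 1.56 and 4.76 CPM in the libraries labelled KO (-0.26 ± 0.341 on the log2 scale, SE, adjusted p = 0.869), in groups that overlapped, so it does not check the labels. The labels give beta cell as the cell type and name no sorting step. In the count table a suffix of unstated meaning marks the 3 KO columns and no control column. The titles number the male mice within each group, but do not state whether a library holds a single animal, a pool or a repeat. Each p-value therefore measures only the spread among the libraries, which may be technical.

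A newly made secretory protein enters the ER through the Sec61 channel, is folded by the Hsp70 chaperone BiP and by glycan-binding lectins, and receives its disulphide bonds from the protein disulphide isomerases. Proteins that stay misfolded are drawn back to the cytosol, ubiquitinated and degraded, which is ERAD. When folding falls behind, ATF6 is cleaved to an active factor and IRE1 (encoded by Ern1) splices the Xbp1 transcript, and both raise the genes of this machinery, while the other sensor, PERK, slows translation and acts through ATF4. Beta cells make proinsulin in large amounts, and acinar cells, which surround islets in the pancreas, make digestive enzymes in still larger ones, so both cell types carry much ER. Cleavage of ATF6 and splicing of Xbp1 are not read by a count per gene, which measures only total transcript.

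The promoters of some of these genes share a sequence. ATF6 and XBP1 act at the ER stress response element (ERSE), searched here as CCAAT, any 9 bases and CCACG, on both strands in the 250 bases before each start in RefSeq (GRCm38.p6). It was found in 37 of 32851 windows over all genes, or 0.113%, and in 9 of the 29 windows of members, or 31%. The members were chosen as genes under ATF6 and XBP1, so the higher share may reflect that choice. It is no result about these libraries, and 19 members with a window had no ERSE. The 29 windows belong to 28 members, and Atf6, Derl1, Hyou1 and Manf were not matched. The sites are shown because they are what members of different roles share in sequence: 4 chaperones and cofactors, both lectin chaperones, Pdia6 and 2 genes of ERAD. Each is written 5′ to 3′ in the orientation of the motif, with the fixed letters in capitals.
Calr: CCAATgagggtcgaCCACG
Canx: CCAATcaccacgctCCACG
Creld2: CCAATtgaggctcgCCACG
Derl3: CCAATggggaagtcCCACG
Dnajc3: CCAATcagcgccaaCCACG
Hsp90b1 upstream site: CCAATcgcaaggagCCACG
Hsp90b1 downstream site: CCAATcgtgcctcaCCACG
Hspa5: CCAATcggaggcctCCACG
Pdia6: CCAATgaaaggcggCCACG
Syvn1: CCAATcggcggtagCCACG
The Hspa5 site lies at -65 to -47 from the start, on the plus strand of chr2:34772025-34772043, inside the span that GENCODE vM21 gives the gene (chr2:34771970-34777547), where a longer transcript starts further upstream. Hsp90b1, on the minus strand of its chromosome, holds 2 sites, at chr10:86705638-86705656 (-212 to -194) and at chr10:86705533-86705551 (-107 to -89), in opposite orientations. No 2 of the 10 sites share their 9 spacer bases. A match is a description of letters and not of a bound site.

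A pair of windows is shown whole because of the values that follow. Derl3 is one of the members that differed most between libraries, and its window (chr10:75893148-75893397, plus strand) carries the ERSE in the reverse orientation, here in capitals. Herpud1 is the only member with ERSE-II, searched as ATTGG, any 1 base and CCACG, a shorter element found in 10 of all windows, or 0.0304%. Its window (chr8:94386179-94386428, plus strand) also holds TGATGCAA, the element of ATF4 and C/EBP factors, read in reverse and present in 260 of all windows, or 0.791%. Both Herpud1 matches are in capitals.
Derl3: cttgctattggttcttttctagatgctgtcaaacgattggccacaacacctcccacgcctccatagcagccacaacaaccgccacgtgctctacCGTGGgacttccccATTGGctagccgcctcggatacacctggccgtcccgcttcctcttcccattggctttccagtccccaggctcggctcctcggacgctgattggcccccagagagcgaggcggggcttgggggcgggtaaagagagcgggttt
Herpud1: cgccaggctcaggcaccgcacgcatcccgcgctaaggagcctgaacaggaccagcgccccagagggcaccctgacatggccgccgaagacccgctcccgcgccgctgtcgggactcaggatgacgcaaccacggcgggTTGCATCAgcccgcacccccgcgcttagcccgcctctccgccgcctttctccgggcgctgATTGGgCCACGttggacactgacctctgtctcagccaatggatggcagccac
The last motif searched, TGACGTGG (UPRE, an XBP1 element), was in 185 of all windows, or 0.563%, and in 0 windows of members. In 23 windows of genes of the PERK and ATF4 arm, ERSE was found 0 times and TGATGCAA 6 times (26.1%).

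No member passed the test between control and KO islets. Adjusted over all 14212 genes tested with edgeR's quasi-likelihood test, 0 members passed a threshold of 0.05, where 0.0704% of all genes did, and the members' adjusted p ran from 0.718 to 0.994. Before adjustment 0 members had a p under 0.05, where 7.37% of all genes did. Adjusted p under 0.05 was also reached by 0 members with DESeq2, where 0.338% of all genes reached it, and by 0 with limma-voom, where 0.0422% did. The fitted log2 fold changes, KO minus control, ran from -0.32 (Dnajb11) to 0.16 (Edem1). They were below 0 for 25 members and above 0 for 7, where 52.2% of all genes were below 0. The median was -0.08, and over all genes tested it was -0.01.

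The intervals give what these libraries could have missed in the mixed RNA, in the fit with genotype as the only term. They are not adjusted for the number of genes and do not bound a change within a single cell type. Over the 32 members the 95% intervals of the fold reached from 0.555 (Ppib) to 1.51 (Edem1). Every interval lay inside a 2-fold change in either direction, 25 lay inside a 1.5-fold change, and 31 left out a 1.5-fold rise. The standard errors ran from 0.0826 to 0.290 on the log2 scale, with a median of 0.131, against 0.152 over all genes.

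**Figure D1:**
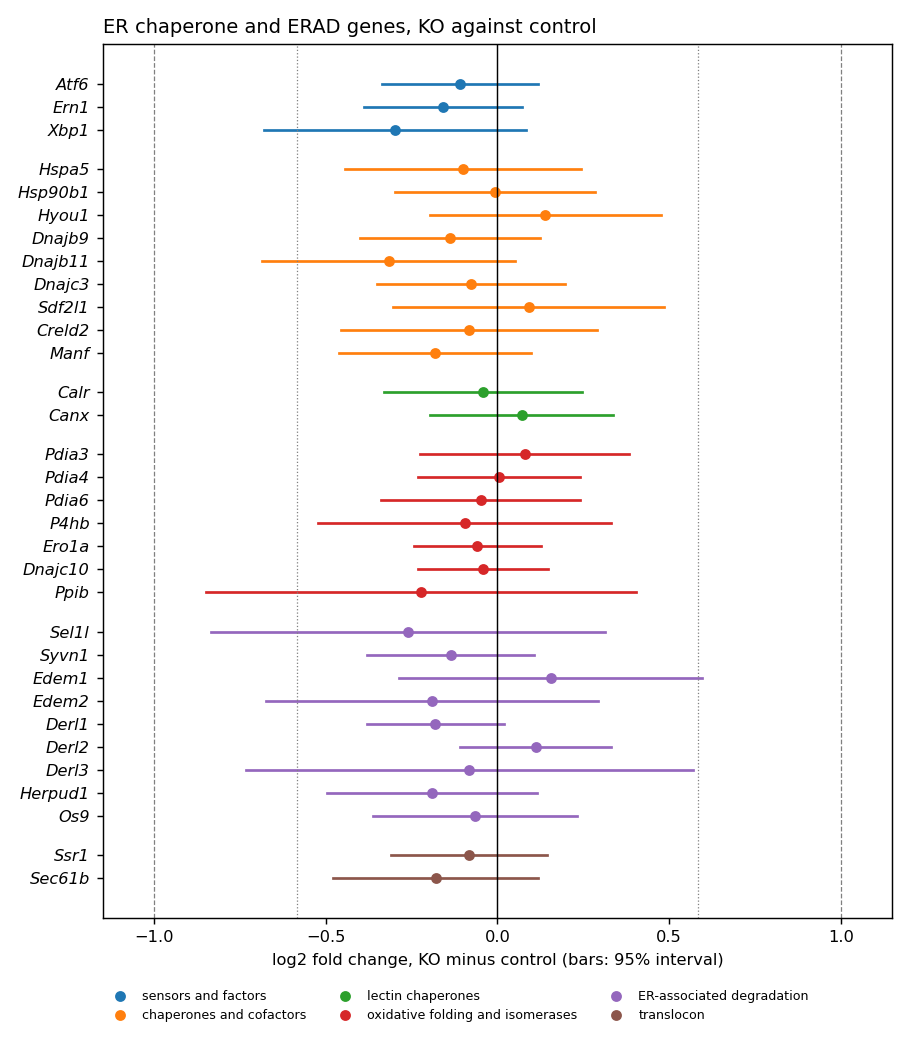
Fitted log2 fold change of the 32 members, KO minus control, by role, with 95% intervals from the edgeR fit of 3 against 3 libraries. Dotted lines mark a 1.5-fold and dashed lines a 2-fold change. Every interval crosses 0 and lies inside the 2-fold lines, and those of Ppib, Sel1l and Derl3 are the longest toward lower values.

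Per length, in TPM (transcripts scaled to the same total in each library) from the deposited gene lengths, the level of the members covered a wide range. P4hb, the classical protein disulphide isomerase, was highest at 885 ± 65.0 TPM in the controls (SD, n = 3). It was followed by Hspa5, which encodes BiP, at 564 ± 118, and by Pdia3, Calr and Hsp90b1 at 478 ± 148, 492 ± 141 and 404 ± 106, whose ranges overlapped one another and that of Hspa5. At the low end stood Ern1 at 25.7 ± 3.78, Syvn1 at 16.0 ± 1.75, Derl2 at 13.3 ± 4.05 and Ero1a at 12.7 ± 2.84 TPM. By this measure the sensors Atf6 and Ern1 and the ubiquitin ligase Syvn1 were far below the chaperones they stand beside. The transcript of the factor Xbp1 was at 169.7 ± 10.3 TPM. The order rests on the deposited lengths, such as 9231 bases for Atf6 and 8173 for Ern1. Not divided by length, control means were 130 CPM for Atf6 and 116 for Ern1, near the chaperone cofactor Dnajb11 at 122. The 32 members together took 1.09 ± 0.128% of all counts in the controls and 1.01 ± 0.0223% in the KO libraries (SD, n = 3). TPM is a share of all counts, a ribosomal RNA locus included, so it is used here to order genes, and groups are compared on counts as CPM, each library scaled to the same total and then by TMM factors.

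**Figure D2:**
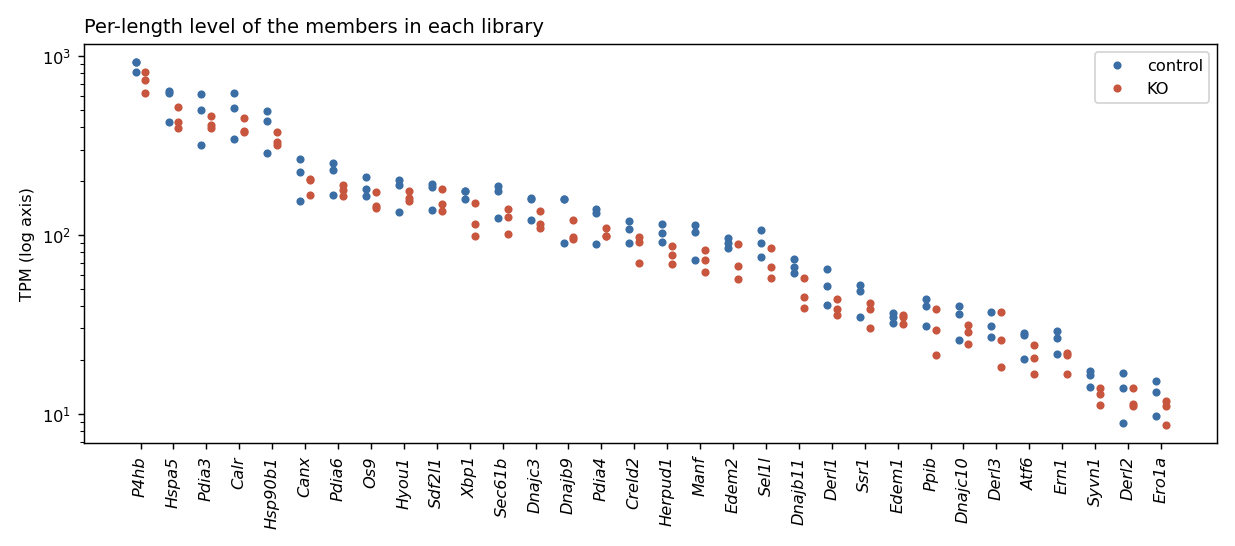
Level of each member per length in each of the 6 libraries, as TPM on a log axis, ordered from the highest mean to the lowest. P4hb stands at the top and Ero1a at the bottom, with the sensors Atf6 and Ern1 among the lowest 5.

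The 3 sensors and factors all had log2 fold changes below 0, and none passed the test. Atf6, the ER membrane precursor of the ATF6 factor, stood at 137, 134 and 117 CPM in the controls and 126, 114 and 120.4 CPM in the libraries labelled KO, with a log2 fold change of -0.11 ± 0.101 (SE, with an adjusted p of 0.824). KO 1 and KO 3 lay between the highest and lowest control. Ern1 stood at 129, 114 and 107 CPM in the controls and 101, 101 and 110.3 CPM in the libraries labelled KO (-0.16 ± 0.102, adjusted p = 0.753). Only KO 3 lay within the range of the controls, and KO 1 and KO 2 were below every control. Xbp1, the transcript that IRE1 splices, varied more, at 375, 299.6 and 258 CPM in the controls and 276, 278 and 204 CPM in the libraries labelled KO (-0.30 ± 0.170, adjusted p = 0.744). Control 1 was the highest and KO 3 the lowest, and KO 1 and KO 2 lay between controls 2 and 3.

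Among the 9 chaperones and cofactors 7 log2 fold changes were below 0 and 2 above, with a median of -0.08. Hspa5, encoding the central Hsp70 chaperone BiP, stood at 1322, 1388 and 1219 CPM in the controls and 1243, 1350.4 and 1071 CPM in the libraries labelled KO. The groups overlapped, KO 2 being above 2 of the 3 controls, and the log2 fold change was -0.10 ± 0.153 (adjusted p = 0.893), with an interval of -0.44 to 0.24. Hsp90b1, the ER form of Hsp90 (GRP94), was among the steadiest members, at 844, 916 and 898 CPM in the controls and 852, 947 and 846 CPM in the libraries labelled KO (-0.01 ± 0.130, adjusted p = 0.992). Hyou1, a large Hsp70-like protein that exchanges nucleotide on BiP, stood at 707, 721 and 663 CPM in the controls and 631, 865 and 806 CPM in the libraries labelled KO. KO 2 and KO 3 were above every control and KO 1 below every control, and the log2 fold change was 0.14 ± 0.149 (adjusted p = 0.842).

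The J-domain cofactors, which set BiP on its clients, gave -0.14 ± 0.116 for Dnajb9, -0.32 ± 0.164 for Dnajb11 and -0.08 ± 0.122 for Dnajc3 on the log2 scale, with adjusted p of 0.809, 0.729 and 0.898. Dnajb9 was highest in control 2, at 168, 212 and 182 CPM in the controls and 174, 180.0 and 158 CPM in the libraries labelled KO. Sdf2l1, a partner of Dnajb11, stood at 112, 113 and 93.2 CPM in the controls and 93.6, 148 and 96.4 CPM in the libraries labelled KO. KO 2 alone was above all other libraries, and without it the log2 fold change went from 0.09 to -0.15. Creld2, a cysteine-rich protein induced by ER stress, stood at 90.1, 85.9 and 66.4 CPM in the controls and 75.2, 92.9 and 60.8 CPM in the libraries labelled KO (-0.08 ± 0.166, adjusted p = 0.922), again with KO 2 highest. Manf, an ER-resident factor that binds BiP and is needed for beta cell maintenance in mice, stood at 187, 191 and 181 CPM in the controls and 164, 191 and 139 CPM in the libraries labelled KO (-0.18 ± 0.125, adjusted p = 0.769). The controls lay close together and KO 2 was among them, while KO 1 and KO 3 were lower.

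The lectin chaperones hold glycoproteins in the folding cycle. Calr, soluble calreticulin, stood at 719, 775 and 808 CPM in the controls and 729, 805 and 701 CPM in the libraries labelled KO (-0.04 ± 0.129, adjusted p = 0.949), and its membrane-bound relative Canx had 0.07 ± 0.119 (adjusted p = 0.903). In neither gene were the groups apart.

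In oxidative folding 5 of 7 log2 fold changes were below 0. P4hb stood at 1694, 1388 and 1190.5 CPM in the controls and 1319, 1556 and 1125 CPM in the libraries labelled KO (-0.10 ± 0.190, adjusted p = 0.921), with control 1 highest and KO 3 lowest. Pdia4 stood at 155, 166 and 152 CPM in the controls and 149, 175 and 150.5 CPM in the libraries labelled KO (0.00 ± 0.105, adjusted p = 0.994), the value nearest to 0 of all members. The other isomerases Pdia3, which works with the lectins, and Pdia6 had 0.08 ± 0.135 and -0.05 ± 0.129. Ero1a, the oxidase that reloads the isomerases, varied little, at 37.4, 36.8 and 36.5 CPM in the controls and 35.1, 33.9 and 37.1 CPM in the libraries labelled KO (-0.06 ± 0.0826, adjusted p = 0.882), and the reductase Dnajc10 had -0.04 ± 0.0841. Ppib, cyclophilin B, a proline isomerase, was the opposite case, with 2.35 times as much in the highest library as in the lowest. It stood at 106, 69.2 and 46.0 CPM in the controls and 71.6, 71.8 and 44.9 CPM in the libraries labelled KO (-0.22 ± 0.278, adjusted p = 0.865). Control 1 was above every other library, the lowest libraries of both groups were close, and without control 1 the log2 fold change was 0.13.

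In ERAD 7 of 9 log2 fold changes were below 0, with a median of -0.14. Sel1l is the adaptor of the ubiquitin ligase Syvn1 (Hrd1), and their complex is the main exit of misfolded luminal proteins. Sel1l stood at 666, 405 and 289 CPM in the controls and 409, 366 and 359.8 CPM in the libraries labelled KO. All KO libraries lay between control 1 and control 3, and the log2 fold change of -0.26 ± 0.255 (adjusted p = 0.831) went to 0.12 without control 1. Syvn1 stood at 50.0, 42.3 and 38.3 CPM in the controls and 38.2, 40.5 and 39.7 CPM in the libraries labelled KO (-0.14 ± 0.108, adjusted p = 0.794). Herpud1, which organises that complex, stood at 155, 126 and 121 CPM in the controls and 115, 135 and 103 CPM in the libraries labelled KO (-0.19 ± 0.136, adjusted p = 0.780), and Os9, a lectin that hands over glycoproteins, had -0.07 ± 0.132.

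The mannosidase-like proteins Edem1 and Edem2 trim the glycans that mark a client for removal. Edem1 stood at 172, 118 and 93.9 CPM in the controls and 127, 153 and 147 CPM in the libraries labelled KO (0.16 ± 0.196, adjusted p = 0.866) and was the member with the highest log2 fold change. Its controls spread more widely than its KO libraries and enclosed them. Edem2, named here after its values were seen, stood at 242, 164 and 133 CPM in the controls and 174, 173 and 125 CPM in the libraries labelled KO (-0.19 ± 0.215, adjusted p = 0.851).

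The derlins sit at the channel through which clients leave the ER. Derl1 was the only member whose groups did not overlap, at 99.3, 90.1 and 96.6 CPM in the controls and 82.7, 87.8 and 81.7 CPM in the libraries labelled KO; 1 of 32 members lay wholly lower in KO, where 5.94% of all genes did, and 0 lay wholly higher, where 7.94% did. Its log2 fold change was -0.18 ± 0.0887 with an interval of -0.38 to 0.02, and it had the smallest p of all members (0.0697, adjusted p = 0.718). Derl2 pointed the other way, at 52.2, 59.2 and 61.3 CPM in the controls and 63.0, 66.1 and 58.0 CPM in the libraries labelled KO (0.11 ± 0.0981, adjusted p = 0.816). Derl3 stood at 53.7, 32.6 and 24.1 CPM in the controls and 41.8, 38.4 and 23.2 CPM in the libraries labelled KO (-0.08 ± 0.290, adjusted p = 0.956), had the largest standard error of all members and went to 0.28 without control 1. Derl1 and Derl2 are described by library because of these values.

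The translocon members Ssr1, a subunit of the TRAP complex, and Sec61b, a subunit of the channel, had log2 fold changes of -0.08 ± 0.101 and -0.18 ± 0.133 (adjusted p = 0.860 and 0.788).

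**Figure D3:**
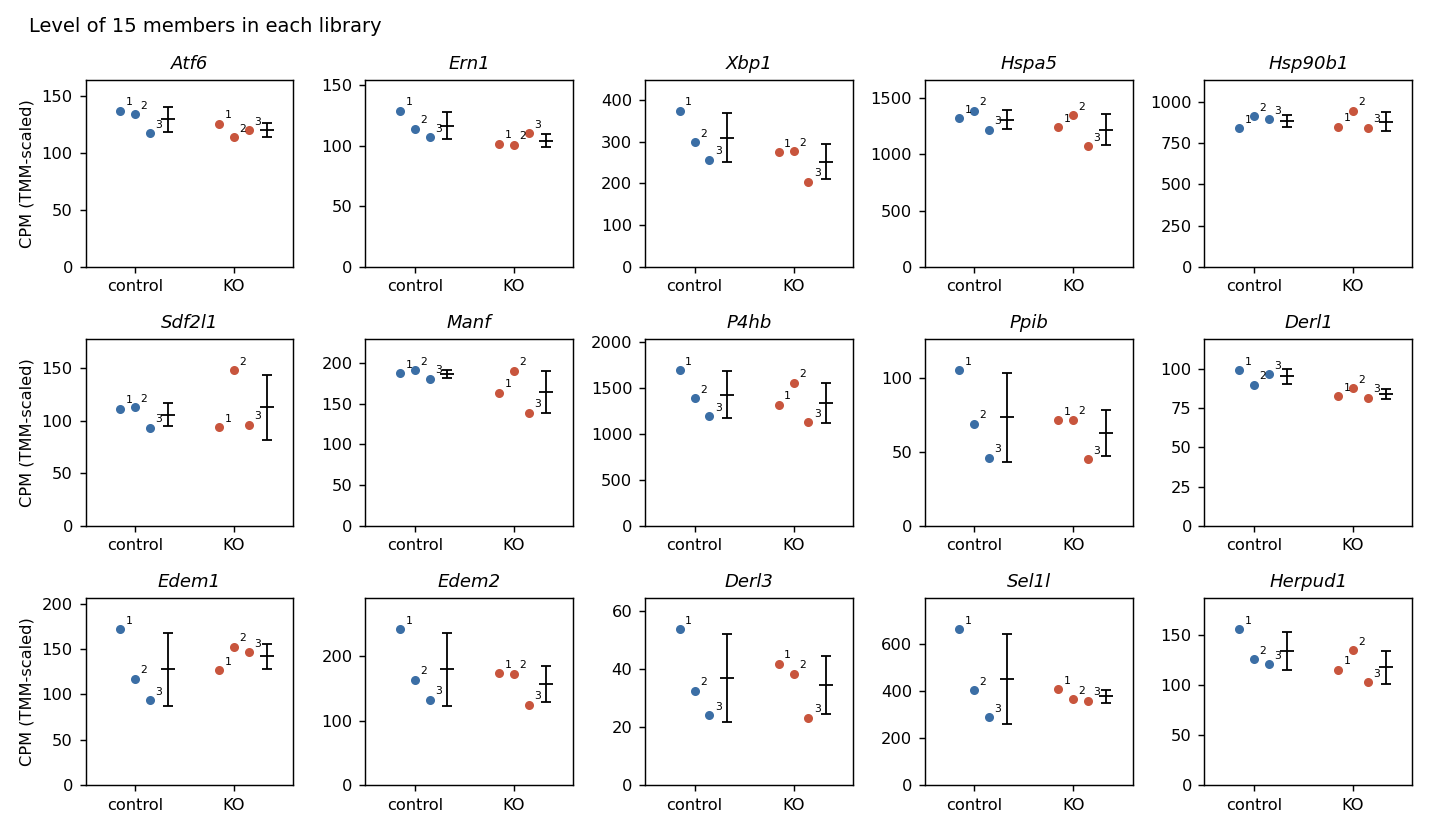
CPM (TMM-scaled, axes from 0) of 15 members in the 3 control and 3 KO libraries. Points are libraries with their replicate number, and the bars beside them are the group mean and SD. Derl1 is the only one whose groups do not overlap. Control 1 is the highest library in every gene shown except Hspa5, Hsp90b1, Sdf2l1 and Manf.

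Seen by library, the members' median deviation from their own mean log2 CPM was 0.13, 0.05 and -0.05 in controls 1, 2 and 3 and -0.05, 0.10 and -0.14 in KO 1, 2 and 3. Control 1 was highest and KO 3 lowest, and KO 2 stood above controls 2 and 3. This order holds for TMM-scaled CPM. As a summed share of all counts, without TMM factors, the members were lowest in control 1 (0.945%) and highest in control 3 (1.19%). Markers of acinar cells were highest in control 1 and lowest in KO 3 by both measures. The acinar genes took 46.2, 35.5 and 25.9% of counts in the controls and 35.7, 31.5 and 19.7% in the KO libraries, a mean of 35.8 ± 10.1% against 29.0 ± 8.34% (SD, n = 3, exact two-sided permutation test, p = 0.5, the smallest possible being 0.1). Counting error was at most 0.0252 percentage points (95% Wilson interval). Of 33 acinar markers 32 were tested and 0 were called. All 32 log2 fold changes were below 0, with a median of -0.27, and the tested markers summed to 215726 to 556549 CPM in the controls and 187374 to 359006 CPM in the KO libraries. In bulk RNA, fewer cells of a type and less RNA per cell cannot be told apart.

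The correlation with this acinar signal differed from member to member, and its cause was not tested. Against the acinar score, the mean log2 CPM of the markers, Edem2 had a Pearson r of 0.994 and a Spearman rho of 1.00 over the 6 libraries (exact permutation p = 0.00139 and 0.00278). For Ppib r was 0.994 (p = 0.00278) and rho 0.943 (p = 0.0167), and for Derl3 r was 0.975 (p = 0.00139, the smallest that 6 libraries allow) and rho 1.00 (p = 0.00278), each by the exact permutation test. Adjusted over all 14212 genes, these became 0.257 for r and 0.458 for rho in all 3 genes, and no member passed. With 6 libraries the smallest p can pass this adjustment only if many genes share it. The adjusted values therefore cannot decide whether a member follows the acinar score. Without control 1 and KO 3, the 2 libraries farthest from the median score, r was 0.993, 0.996 and 0.949. For Xbp1, P4hb, Dnajb11 and Dnajc3 r was 0.944, 0.929, 0.927 and 0.913 (exact permutation p = 0.0167, 0.00972, 0.0181 and 0.0167, rho 0.771, 0.829, 0.771 and 0.714 with p = 0.103, 0.0583, 0.103 and 0.136), and without those 2 libraries it was 0.721, 0.746, 0.624 and 0.766.

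In all, 7 of the 32 members had r over 0.9, where 4.03% of all genes did, and 7 had r below 0. The median r was 0.57 over the members and -0.08 over all genes. These points share libraries and scaling factors, and the 32 relations are not independent. All r and rho used TMM-scaled CPM, and the relation without that scaling was not tested. Canx stood at the other end, with r = -0.784 (exact permutation p = 0.0625) and rho = -0.829 (p = 0.0583), and r = -0.256 without the same 2 libraries. The chaperones differed among themselves. Hsp90b1 (r = -0.0866, rho = -0.200) and Calr (r = -0.111, rho = -0.0857) had exact permutation p of 0.864 and 0.803 for r and 0.714 and 0.919 for rho. Hspa5 had r = 0.718 (exact permutation p = 0.107) and rho = 0.486 (p = 0.356).

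**Figure D4:**
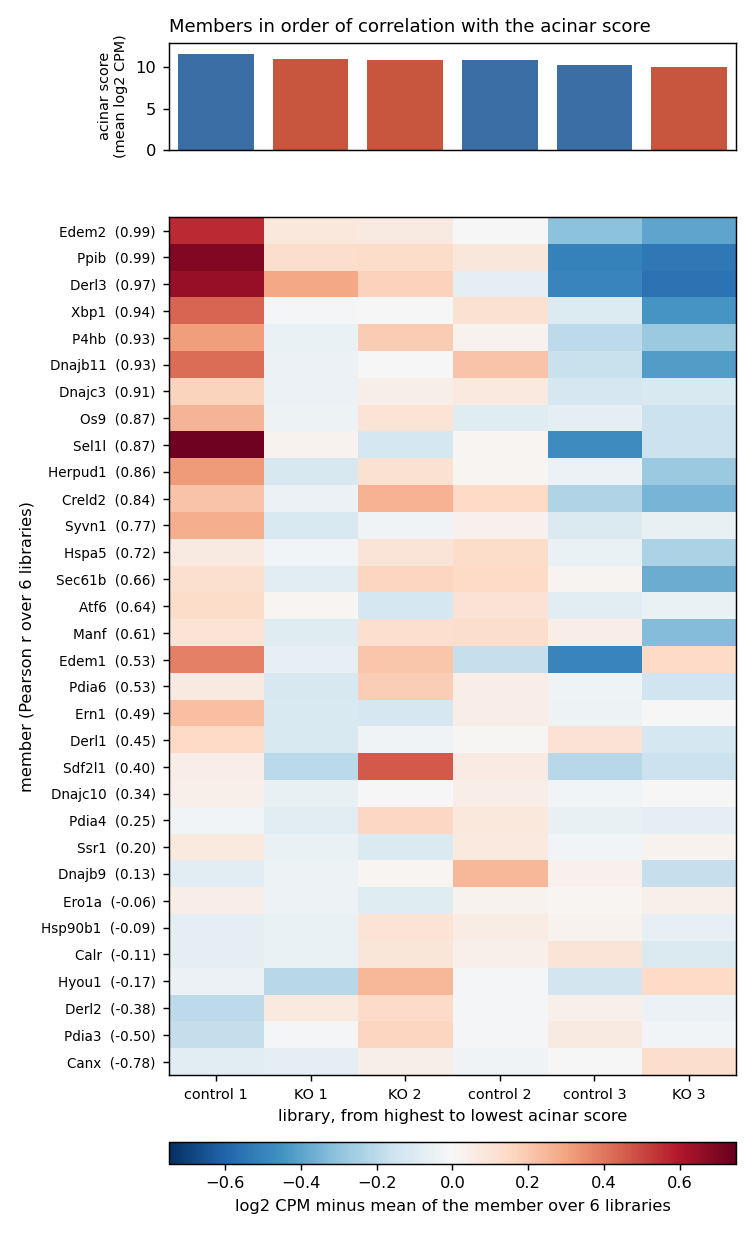
Top, acinar score (mean log2 CPM of the acinar markers) of the 6 libraries in falling order, controls in blue and KO in red. Bottom, log2 CPM of each member minus its mean over the 6 libraries, with members ordered by Pearson r. Edem2, Ppib and Derl3, with r of 0.994, 0.994 and 0.975, go from high in control 1 to low in KO 3, and Canx, with r of -0.784, does not.

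With the acinar score as a covariate the members' median log2 fold change was -0.02 and 0 members were called, where 0.31% of all genes were. With control 1 and KO 3 left out together, a choice made after seeing the data, it was 0.01, again with 0 called, where 0.0697% of all genes were. Single libraries moved the median by more than 1.5 times. It was -0.03 without control 1 and without KO 3, and -0.16 without control 3 and -0.15 without KO 2. A further measure was a ribosomal RNA locus, which took 4.07 ± 0.657% of counts in the controls and 12.2 ± 6.57% in the KO libraries (SD, n = 3, exact permutation p = 0.1). The values were 5.36, 12.6 and 18.5% in KO 1, 2 and 3. Its log2 CPM was 15.7, 14.9 and 15.2 in the controls and 15.7, 17.1 and 17.4 in the KO libraries. With this log2 CPM as a covariate the members' median was -0.13, with 0 called, as were 0% of all genes (214 at an unadjusted p under 0.05). That fit cannot fully tell the covariate from genotype.

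Insulin transcripts marked the islet content. Ins1 and Ins2 together took 10.2 ± 3.16% of counts in the controls and 10.6 ± 1.13% in the KO libraries (SD, n = 3, exact permutation p = 0.9), less than the acinar genes in all 6 libraries. Of 14 beta cell markers 11 had a log2 fold change above 0, with a median of 0.16 and 0 called. Plasma cell markers, another secretory type, summed to 20.6 to 29.8 CPM in the controls and 16.3 to 34.6 CPM in the KO libraries, and 3 of the 8 (Mzb1, Iglc2 and Tnfrsf17) were too low to be tested. Fibroblast markers summed to 134 to 276 CPM in the controls and 40.4 to 213 CPM in the KO libraries, with KO 2 lowest, endothelial markers to 298 to 365 and 197 to 361 CPM, and macrophage markers to 88.3 to 99.9 and 79.1 to 92.9 CPM. Of the markers of alpha, delta, PP and duct cells, 0 of 17 were called. The part of any of these cell types in the members' values was not tested, apart from the acinar fits above.

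Ratios between partners within 1 library do not depend on its scaling, and 8 pairs, chosen with the values known, were compared. Edem1 over Edem2 in counts was 0.711, 0.718 and 0.708 in the controls and 0.729, 0.886 and 1.18 in the KO libraries. Derl2 over Derl1 was 0.526, 0.658 and 0.635 in the controls and 0.761, 0.753 and 0.709 in the KO libraries. In both pairs every KO library was above every control, with an exact two-sided permutation p of 0.1, the smallest that 3 against 3 allows, and 0.4 adjusted over the 8. Because the pairs were picked from these same values, the p-values cannot decide whether a ratio differs between the groups. Among single genes, 13.9% of all tested had groups without overlap in either direction. The other 6 pairs, among them Hyou1 over Hspa5, Canx over Calr and Sel1l over Syvn1, gave exact permutation p of 0.3 to 0.8.

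In 5 lists of genes around the members in the same pathway, 0 genes were called. Of 35 other ER folding genes 31 had a log2 fold change below 0, with a median of -0.09 and 0 called. Erp44, which retrieves unassembled proteins from the Golgi, had the smallest p among them, at -0.30 ± 0.107 (adjusted p = 0.600). Of 27 other ERAD genes 17 were below 0 (median -0.03, 0 called), with Marchf6, an ERAD ubiquitin ligase, at 0.19 ± 0.108, the ERAD factor Aup1 at -0.27 ± 0.156 and the segregase Vcp at -0.15 ± 0.0930, the 3 with the smallest p in that list (adjusted p = 0.744, 0.744 and 0.749). Of 26 genes of the translocon, signal peptidase and oligosaccharyltransferase 25 were below 0 (median -0.10, 0 called), and of 24 genes of transport between ER and Golgi 19 were (median -0.10, 0 called). Of these 24, Arf4, Sec23b and Bet1, at -0.24 ± 0.0960, -0.22 ± 0.0939 and -0.28 ± 0.122, had unadjusted p of 0.0324, 0.0414 and 0.0470, with adjusted p of 0.659, 0.674 and 0.674. Of 11 other genes of ATF6 and IRE1 signalling 10 were tested, 8 were below 0 (median -0.07) and 0 were called. Creb3l1, a relative of ATF6, was at -0.46 ± 0.0950 (adjusted p = 0.223) with no overlap of the groups.

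The list named here the PERK and ATF4 arm was the one in which genes were called. Of its 22 genes, chosen with earlier results of these data known, 20 were below 0, with a median of -0.37, and 3 were called lower, where 0.0633% of all genes were called lower. They were Atf5 at -1.70 ± 0.126, Aars at -0.80 ± 0.0950 and Aldh1l2 at -1.34 ± 0.178 (adjusted p = 0.00129, 0.0273 and 0.0444). Atf5 encodes a factor downstream of ATF4 and stood at 156, 137 and 152 CPM in the controls and 52.4, 46.4 and 38.6 CPM in the libraries labelled KO. At an unadjusted p under 0.05, 14 were lower, where 2.54% of all genes were, and 13 lay wholly lower in KO, where 5.94% did. Atf4 itself was at -0.46 ± 0.107 (adjusted p = 0.358), the stress factor Ddit3 (CHOP) at -0.77 ± 0.156 (0.214), and the PERK gene Eif2ak3 at 0.66 ± 0.195 (0.537). With 1 library left out, Atf5 was called in 6 of 6 fits, at -1.81 to -1.59. Aldh1l2 was called in 2 of them (without control 1 and without control 3), at -1.49 to -1.10 over the 6, and was not called by limma-voom (-1.32, adjusted p = 0.0543). Aars was called in 0 of them (adjusted p from 0.0723 to 0.147), at -0.86 to -0.74. With the ribosomal RNA covariate none of the 3 was called, at log2 fold changes of -1.49 for Atf5, -0.78 for Aars and -1.49 for Aldh1l2 (adjusted p = 0.458 for Atf5 and 1.00 for the other two). Of the 9 alternatives other than 1 library left out, the ribosomal RNA fit included, 8 called Atf5, 8 Aars and 7 Aldh1l2. With the acinar covariate all 3 were called, at -1.66 for Atf5, -0.78 for Aars and -1.19 for Aldh1l2. The list's median deviation was 0.45, 0.16 and 0.13 in the controls and -0.12, -0.18 and -0.29 in the KO libraries. Control 1 was again highest and KO 3 lowest. The difference between this list and the members was not tested. Whether PERK lies behind the values of this list was not tested either.

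**Figure D5:**
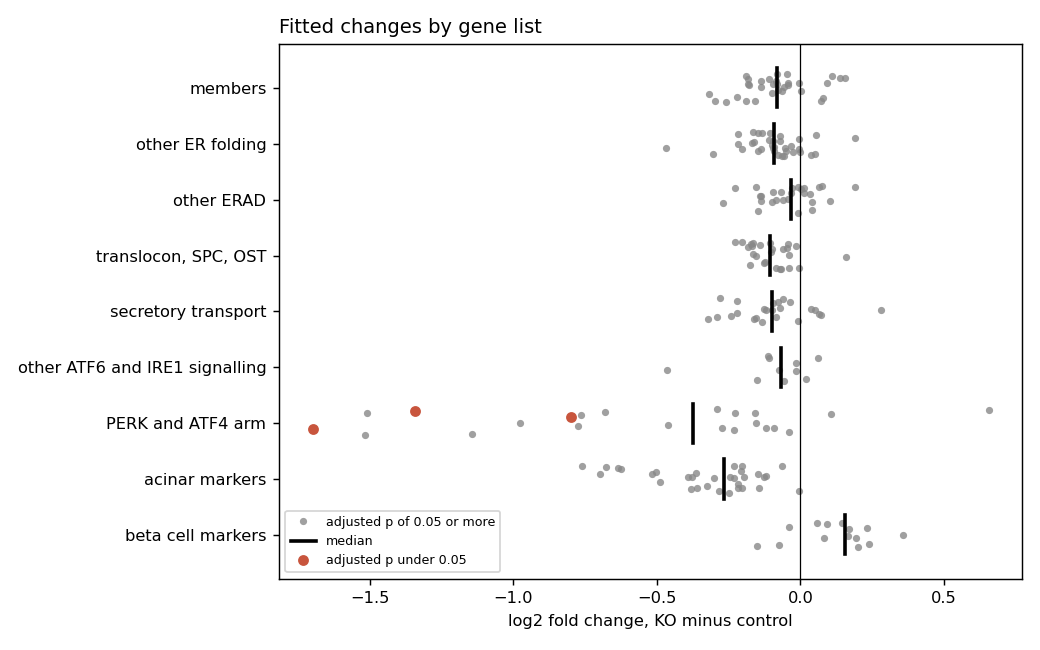
Fitted log2 fold change, KO minus control, of each tested gene in the members and 8 further lists, with each list's median as a bar and genes of adjusted p under 0.05 in red. The members lie between -0.32 and 0.16 around a median of -0.08, while the PERK and ATF4 arm reaches -1.70 and holds the 3 called genes.

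The members were also read by promoter. The 9 members with an ERSE had a median log2 fold change of -0.08, with 8 below 0 and 0 called, and the 19 with a window but no ERSE had a median of -0.10, with 14 below 0 and 0 called. Herpud1, with the other elements shown above, was at -0.19.

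Without a stated strand setting, reads of overlapping genes cannot be told apart. Snx22 overlaps 25% of the exon bases of Ppib on the opposite strand and has 11 counts in all, against 8019 for Ppib. Dcaf1 overlaps 4.1% of those of Manf, with 4454 counts against 21894, and Mis12 overlaps 2.9% of those of Derl2. A pseudogene overlaps 10.3% of Hsp90b1, with 389 counts against 112166.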

How the data were processed

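The authors deposited raw counts per gene for 6 libraries with gene lengths, 1 column a library. The submitters' processing notes name featureCounts 2.0.0, STAR 2.7.9, mm10 and GRCm38.p6. How strand and multi-mapping reads were handled, and which annotation release was counted, is not given in the sources used here. Symbols were joined through a gene name table (55141 of 55401 identifiers, 54349 of them with their version) and RefSeq synonyms (3 list symbols). The share of counts without a symbol was at most 0.00998%.

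Counts were tested with edgeR 4.0.16 (quasi-likelihood, TMM, filterByExpr at min.count 10 and min.total.count 15, genotype as the only term, R 4.3.3), two-sided, with Benjamini-Hochberg adjustment over 14212 genes at 0.05. The common biological coefficient of variation was 0.14. Standard errors were taken from the fold change and its F statistic, and intervals are at 95%. Log2 CPM of single genes used a pseudocount of 0.1. The acinar score used edgeR's log2 CPM with its own small added count, and the ribosomal RNA covariate used no pseudocount. Levels per length (TPM) were computed from the deposited counts and lengths. Shares and ratios were compared by exact permutation. Alternatives were RLE scaling, no filter, a replicate block, single libraries left out, an acinar score or a ribosomal RNA locus as covariate, acinar genes removed, DESeq2 1.42.0 and limma-voom 3.58.1. Leaving out control 1 and KO 3 together was chosen after seeing the data. The script was tested on simulated data. Gene positions are from GENCODE vM21, and promoter sequences from RefSeq, both on GRCm38.

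All 32 members are accounted for. By library are given the sensors and factors, main chaperones, Pdia4, P4hb, Ero1a, Herpud1, Sel1l, Edem1, Syvn1 and Derl3. From other lists, genes among the 4 with the smallest p are named by their fold change, with Atf4, Ddit3 and Eif2ak3, and Atf5 is also given by library. Derl1, Derl2, Edem2 and Ppib were added after their values were seen. The members, gene lists and marker lists were chosen with earlier results of these data known. Summaries and figures used SciPy 1.17.1, NumPy 2.4.6, matplotlib 3.10.9 and pandas 2.3.3 under Python 3.11.15.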

Additional observations from a re-analysis of the deposited data

How the results depend on the processing

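In all 15 alternatives 0 members were called, the smallest adjusted p of a member being 0.349 (replicate block). The members' median log2 fold change ran from -0.16 to 0.01 and was above 0 in 1 alternative, with control 1 and KO 3 left out. Of 480 member values 47 had the opposite sign, in 18 members, and 14 members kept their sign throughout. Genes called over the whole table numbered 10 in the reported fit, 300 with no filter on low counts, 36 with the replicate block, 44 with the acinar covariate, 0 with the ribosomal RNA covariate by edgeR (214 at an unadjusted p under 0.05), 48 by DESeq2, 6 by limma-voom and 2 to 6 with 1 library left out. The cause of these differences was not tested. Whether equal replicate numbers mark paired libraries cannot be decided from so few values. The correlation of deviations was 0.23, -0.21 and 0.19 for equal numbers, and ran from -0.3 to 0.2 for unequal ones.

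With the ribosomal RNA covariate the log2 fold change was -0.17 for Hyou1, 0.0054 for Dnajb9, -0.16 for Sdf2l1, -0.044 for Canx, -0.052 for Pdia4, -0.20 for Edem1 and 0.061 for Derl3. With the acinar covariate it was 0.021 for Creld2, 0.020 for P4hb, 0.060 for Ppib, 0.0058 for Sel1l, 0.011 for Edem2, 0.19 for Derl3 and 0.0081 for Os9. Without control 1 and KO 3 it was 0.023 for Dnajc3, 0.14 for Creld2, -0.0020 for Canx, 0.028 for Pdia6, 0.15 for P4hb, 0.32 for Ppib, 0.16 for Sel1l, 0.22 for Edem2, 0.51 for Derl3, 0.015 for Herpud1 and 0.12 for Os9. By limma-voom it was 0.0031 for Hsp90b1. With 1 library left out in turn, it ran from -0.062 to 0.023 for Hsp90b1, -0.15 to 0.21 for Sdf2l1, -0.25 to 0.059 for Creld2, -0.10 to 0.0005 for Calr, -0.077 to 0.044 for Pdia4, -0.16 to 0.013 for Pdia6, -0.22 to 0.047 for P4hb, -0.48 to 0.13 for Ppib, -0.50 to 0.12 for Sel1l, -0.026 to 0.43 for Edem1, -0.37 to 0.083 for Edem2, -0.32 to 0.28 for Derl3 and -0.14 to 0.056 for Os9. The cause was not tested. With 3 libraries a group, changes inside the intervals given cannot be told from none.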
